A study of Homo sapiens with 96 samples.

Results

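The mitochondrial ribosome translates the few messages encoded by mitochondrial DNA, and these specify subunits of the respiratory chain and of ATP synthase. Its proteins are encoded in the nucleus, transcribed and spliced like other messages, translated in the cytoplasm and imported into the organelle. They carry the symbols MRPL, for large subunit, and MRPS, for small subunit. They are sorted by symbol here, which need not match the present assignment of each protein. Some descend from bacterial ribosomal proteins and others were added during the evolution of mitochondria.

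Splicing of these genes was followed in A549, a human lung adenocarcinoma cell line. Every splicing event whose gene symbol was MRPL or MRPS followed by a number, with an optional letter A to C, was taken from 8 tables of events, which gave 845 of 239104 events and 72 of 14359 gene symbols, 43 of them MRPL and 29 MRPS. The events were 565 skipped exons (SE) in 72 genes, 194 pairs of mutually exclusive exons (MXE) in 43 genes, 35 alternative 3′ splice sites (A3SS) in 18 genes, 34 alternative 5′ splice sites (A5SS) in 16 genes and 17 retained introns (RI) in 12 genes. With at least 10 reads in every library and reads of both forms, 762 of the 845 events could be tested in 1 or more comparisons with DMSO, and 320 could be tested in all 8 of these comparisons. Overlapping events of a gene share reads and are not independent of each other.

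Cells received 0.01% DMSO, 1 µM GSK591, which inhibits PRMT5, the main Type II arginine methyltransferase, 1 µM MS023, which inhibits the Type I arginine methyltransferases, or both inhibitors. The 30 poly(A)-RNA libraries formed 10 groups of 3, namely DMSO for 4 and 7 days, GSK591 for 2, 4 and 7 days, MS023 for 2, 4 and 7 days, and GSK591 + MS023 for 2 and 4 days. The 2- and 4-day groups were set against 4-day DMSO, so each 2-day difference also spans a difference in culture time, and the 7-day groups were set against 7-day DMSO. All cells were of 1 cell line, and expression of its markers was not analysed here. The labels do not say whether the 3 libraries of a group came from separate cultures, and p-values rest on the spread between libraries only. That spread was moderated across all events of a type. A p-value therefore does not measure the spread of that event's own libraries alone, and the values of each library are given beside it for many events. The letters a, b and c give a library's position within its table cell. Within a library, the tables held 3118222 to 5224249 reads on RI events and 45420420 to 70493131 reads on SE events, and 223283 to 447517 reads fell on the events of these genes.

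Library a of 2-day GSK591 stood apart from its group. Its exon counts differed from those of libraries b and c by a chi-square per exon of 61.2 and 65.4, against 2.62 to 6.5 for the other pairs of libraries within a group, and it held 7.89 RI reads per 100 SE reads, against 6.16 to 7.13 in the other 29 libraries. For the counts of calls and for the called events described here, values at 2 days of GSK591 are therefore also given without it.

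Percent spliced in (Ψ) is the share of the length-corrected reads that carry the intron, the exon or the longer form, from 0 to 1, and ΔΨ is the inhibitor mean minus the DMSO mean. An event was called when the adjusted p-value of a quasi-binomial test, corrected over all events of its type in the comparison, was below 0.05. Differences on the log2 odds scale are given ± their standard error.

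The splice sites of the events described in most detail are shown first, read from the GRCh37 genome on the strand of the gene, so that each can be placed beside its values. Exon bases are in capitals and intron bases in lower case, and each site runs from 5′ to 3′. The first set holds 5′ splice sites of the 5 introns called against DMSO. Of these, the site of MRPL28 intron 3 begins with gc where the others begin with gt.
MRPL20 intron 2: ACCgtaagc
MRPL52 intron 1: TCAgtgagt
MRPL28 intron 3: AAGgcaagc
MRPS18A intron 4: CAGgtagaa
MRPL4 intron 2: AGGgtaagg

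The 3′ splice sites of the same introns follow, with the run of pyrimidines before the final ag.
MRPL20 intron 2: ttcatgttttcttatttcagCTC
MRPL52 intron 1: ctgctctgttctcccagcagGTG
MRPL28 intron 3: ccatgtgagccttctgccagACC
MRPS18A intron 4: ccctcttccccgccactcagGTC
MRPL4 intron 2: gacccccgcaatcgctccagGTC

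The MRPL52 intron is short enough to be shown whole, at chr14:23299140-23299271 with 10 exon bases on each side, because its Ψ in DMSO lay near the middle of the scale.
MRPL52 intron 1: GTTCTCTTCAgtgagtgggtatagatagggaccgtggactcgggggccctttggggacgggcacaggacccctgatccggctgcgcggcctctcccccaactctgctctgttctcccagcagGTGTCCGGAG

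The next pair are the coding cassette exons with the clearest changes, at chr2:27997271-27997403 and chr4:84379479-84379588, each with 20 intron bases before and 6 after.
MRPL33 exon 3: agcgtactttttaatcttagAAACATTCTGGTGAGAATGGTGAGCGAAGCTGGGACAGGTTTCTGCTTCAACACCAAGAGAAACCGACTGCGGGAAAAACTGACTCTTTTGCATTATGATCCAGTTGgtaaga
MRPS18C exon 3: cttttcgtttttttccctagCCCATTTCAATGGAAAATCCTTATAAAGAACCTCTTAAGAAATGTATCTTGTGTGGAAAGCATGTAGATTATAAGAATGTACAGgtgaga

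The last set holds competing splice sites, the one that gives the longer exon and the one that gives the shorter exon.
MRPL55 exon 2, longer: TTGgtgagt
MRPL55 exon 2, shorter: CTGgtgagg
MRPL21 leader exon, longer: AATgtgggt
MRPL21 leader exon, shorter: AGGgtaata
MRPL21 coding exon, longer: CAGgtgggg
MRPL21 coding exon, shorter: CGGgtaatg
MRPS11 3′ splice site, longer: cctttttctttctcacccagGCT
MRPS11 3′ splice site, shorter: gcttcttctacttttctcagCAC

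Few introns of these genes were retained at a different level after PRMT inhibition. In the table of 4-day GSK591, 15 of the introns could be tested. Their median length was 228 bases, against 254 bases over all 3933 introns tested there, and their median GC content was 59.9% against 57%. Their median Ψ in 4-day DMSO was 0.484 against 0.18. Of the 15, 3 had a mean Ψ above 0.9 in 4-day DMSO and 7 had a mean Ψ below 0.1. Among all introns tested these shares were 20.5% and 39.5%, so both sets held introns that were almost always and almost never retained.

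With GSK591, retention was called for 2 of 15 introns after 2 days, both higher, where 26.4% of all introns tested were called. Leaving out library a of 2-day GSK591 gave 4 of 15 called, all higher, where 27.4% of all introns were called. The further introns were those of MRPL4 and MRPL55. After 4 days 5 of 15 were called, 4 higher and 1 lower, where 38.2% of all introns were called. After 7 days 2 of 16 were called, 1 higher and 1 lower, where 27.9% of all were. The introns called against DMSO with GSK591 were those of MRPL20, MRPL52, MRPS18A, MRPL4 and MRPL28. With all libraries, the share of these genes' introns that was called was below the background at each time. Without library a, the 2-day share of 26.7% was close to the background of 27.4%. Each share rests on only 15 or 16 introns. The median ΔΨ over the introns tested was 0.010, 0.0099 and 0.0061 at 2, 4 and 7 days, against 0.015, 0.0196 and 0.0076 over all introns.

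With MS023, retention was called lower for 1 of 17 introns after 2 days (MRPL20), 2 of 15 after 4 days (MRPL20 and MRPL28) and 1 of 16 after 7 days (MRPL20), where 5.65%, 7.17% and 11.4% of all introns were called. With GSK591 + MS023, 1 of 16 was called higher after 2 days and 1 of 16 after 4 days, MRPL20 each time, where 34.7% and 39.7% of all introns were called.

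Intron 2 of MRPL20, a large-subunit protein with a bacterial homologue, was the 1 event of these genes that was called in all 8 comparisons with DMSO. The intron lies between coding exons at chr1:1341267-1342288 on the minus strand and is 1022 bases long. The retained form is annotated as a retained-intron transcript, and its first in-frame stop is at base 247 of the intron. Between 1188 and 2879 reads per library fell on the event.

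The MRPL20 intron had Ψ values of 0.0210, 0.0290 and 0.0268 in 4-day DMSO (mean 0.0256 ± 0.00415 SD, n = 3). They were 0.0755, 0.114 and 0.117 after 2 days of GSK591, 0.155, 0.150 and 0.160 after 4 days, and 0.0661, 0.0692 and 0.0708 after 7 days, where 7-day DMSO gave 0.0164, 0.0139 and 0.0162. Every GSK591 library was above every DMSO library of its time. ΔΨ was 0.0763 after 2 days (log2 odds 2.0 ± 0.20, adjusted p = 8.90e-07, quasi-binomial test), 0.1295 after 4 days (2.80 ± 0.11, adjusted p = 4.98e-14) and 0.0532 after 7 days (2.23 ± 0.11, adjusted p = 2.01e-12). Without library a of 2-day GSK591, ΔΨ at 2 days was 0.0896 (adjusted p = 7.13e-13). Retention rose further from 2 to 4 days of GSK591, by a ΔΨ of 0.0532 in the direct test (log2 odds 0.80 ± 0.14, adjusted p = 0.00126), and of 0.0400 without library a (adjusted p = 0.00054). Limma did not call this difference (adjusted p = 0.389). In the direct test of 4 against 2 days, 4.84% of all introns and 1 of 15 introns of these genes, that of MRPL20, were called.

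In the MS023 libraries the same intron had lower values, 0.0155, 0.0147 and 0.0188 after 2 days, 0.0163, 0.0133 and 0.0154 after 4 days and 0.00839, 0.00965 and 0.00860 after 7 days. All 9 were below every DMSO library of their comparison. ΔΨ was −0.00926 (adjusted p = 0.00361), −0.0106 (adjusted p = 0.00259) and −0.00662 (adjusted p = 0.000282), that is, log2 odds of −0.67 ± 0.15, −0.79 ± 0.15 and −0.81 ± 0.15. These MS023 calls were lost with limma on the log2 odds (0.393, 0.245 and 0.153 as adjusted p), whereas the GSK591 calls were kept.

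With both inhibitors the MRPL20 intron had Ψ values of 0.104, 0.102 and 0.113 after 2 days and 0.143, 0.118 and 0.136 after 4 days. ΔΨ against DMSO was 0.0807 (adjusted p = 1.03e-12) and 0.107 (adjusted p = 2.23e-14). The libraries with both inhibitors therefore lay with the GSK591 libraries and apart from the MS023 libraries. Against GSK591 alone the difference was 0.00433 after 2 days (log2 odds interval −0.116 to 0.468, adjusted p = 0.623) and −0.0228 after 4 days (−0.434 to −0.0887, adjusted p = 0.0521), neither of which passed the test.

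Intron 1 of MRPL52, a mitochondria-specific protein of the large subunit, had a Ψ near the middle of the scale in DMSO. It lies between coding exons at chr14:23299150-23299261 on the plus strand, is 112 bases long, carries an in-frame stop at base 12, and its retained form is annotated as protein coding. Ψ was 0.497, 0.470 and 0.483 in 4-day DMSO, 0.610, 0.658 and 0.654 after 2 days of GSK591, and 0.613, 0.584 and 0.672 after 4 days, with no overlap between GSK591 and DMSO. ΔΨ was 0.157 after 2 days (log2 odds 0.88 ± 0.18, adjusted p = 0.00188) and 0.1395 after 4 days (0.82 ± 0.20, adjusted p = 0.00269). Without library a of 2-day GSK591 the first value was 0.172 (adjusted p = 0.00149).

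After 7 days the MRPL52 intron had Ψ values of 0.525, 0.516 and 0.545 with GSK591 and 0.390, 0.463 and 0.480 with DMSO. The groups did not overlap, but the difference of 0.0841 did not pass the test (adjusted p = 0.0614). With both inhibitors the values were 0.543, 0.634 and 0.547 after 2 days (ΔΨ = 0.0912, adjusted p = 0.0625) and 0.528, 0.499 and 0.504 after 4 days (ΔΨ = 0.0266, adjusted p = 0.573). MS023 alone gave means of 0.476, 0.454 and 0.424 after 2, 4 and 7 days, with adjusted p-values of 0.923, 0.646 and 0.706.

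**Figure D1:**
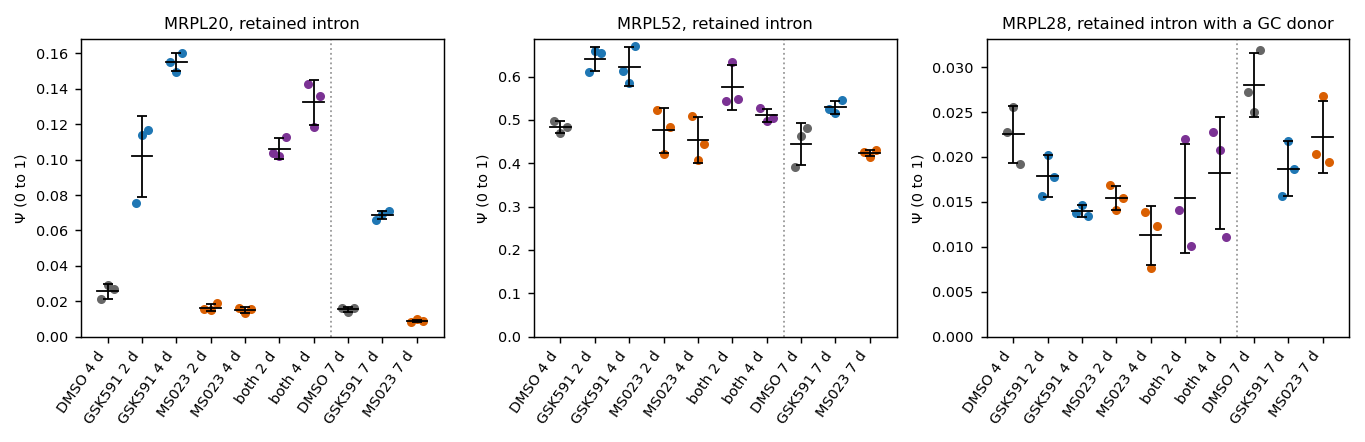
Percent spliced in (Ψ, vertical axis) of the introns of MRPL20, MRPL52 and MRPL28 in the 10 groups; points are libraries, lines are group means and bars are SD (n = 3). The MRPL20 intron is highest in the groups with GSK591, up to a mean of 0.155 at 4 days, and the MRPL52 intron rises from 0.484 in 4-day DMSO to 0.641 after 2 days of GSK591.

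The intron of MRPL28, a large-subunit protein with a bacterial homologue, moved the other way with GSK591. This intron 3, at chr16:418636-419067 on the minus strand, is 432 bases long and had 600 to 1419 reads per library. Ψ was 0.0228, 0.0256 and 0.0193 in 4-day DMSO and 0.0138, 0.0147 and 0.0134 after 4 days of GSK591, with no overlap (ΔΨ = −0.00859, log2 odds −0.71 ± 0.20, adjusted p = 0.00687). It was also called lower after 7 days of GSK591, at 0.0156, 0.0218 and 0.0187 against 0.0272, 0.0250 and 0.0319 in 7-day DMSO (ΔΨ = −0.00932, adjusted p = 0.0414). That call was lost without DMSO library a (adjusted p = 0.0759) or c (0.141), and without GSK591 library a (0.16) or c (0.0956).

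The 4-day MS023 libraries had MRPL28 values of 0.0139, 0.00759 and 0.0123, below all DMSO libraries (ΔΨ = −0.0113, adjusted p = 0.00655), and the call was lost without MS023 library b (adjusted p = 0.0686). Limma did not call the MRPL28 intron in any of these comparisons, with adjusted p-values of 0.0615 and 0.15 for GSK591 at 4 and 7 days and of 0.238 for MS023. In the direct test at 4 days the inhibitors were not separated for this intron (GSK591 minus MS023, log2 odds interval −0.183 to 0.797, adjusted p = 0.336).

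The other introns called against DMSO with all libraries were called only with 4 days of GSK591. The intron of MRPS18A, a member of a small family of paralogous MRPS18 proteins, had Ψ values of 0.0518, 0.101 and 0.0747, against 0.0406, 0.0510 and 0.0438 in DMSO (ΔΨ = 0.0307, adjusted p = 0.0366). The lowest GSK591 library lay just above the highest DMSO library. The call was lost without DMSO library a (adjusted p = 0.0915) or c (0.0702), without GSK591 library b (0.292) or c (0.0759), and with limma (0.131). Intron 4 of MRPS18A, at chr6:43643009-43643230, holds no in-frame stop.

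The intron of MRPL4, a large-subunit protein with a bacterial homologue, had values of 0.0216, 0.0148 and 0.0301 after 4 days of GSK591 against 0.0107, 0.00642 and 0.00419 in DMSO (ΔΨ = 0.0151, adjusted p = 0.0213). This call was lost without DMSO library b (adjusted p = 0.0508) or c (0.0765) or GSK591 library c (0.122). After 2 days of GSK591 the MRPL4 intron was called only without library a (ΔΨ = 0.0145, adjusted p = 0.0487), and not with all libraries (adjusted p = 0.171). An antisense gene overlaps this intron, at chr19:10363140-10363226, and whether the counting used strand is not given in the sources used here.

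The remaining 12 introns of these genes were not called against DMSO in any of the comparisons in which they could be tested, with all libraries in the fit. They included the intron in the 3′ untranslated region (UTR) of MRPL49, with a mean Ψ of 0.998 in 4-day DMSO, and an intron of MRPS22 with a mean Ψ of 0.00858, so that both ends of the range were represented. The canonical transcript of MRPL49 keeps this stretch, so retention is its annotated main form. MRPL28 had a further intron event with a mean Ψ of 0.00483 that was tested in all 8 comparisons.

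The inhibitors were also compared with each other. GSK591 against MS023 gave 3 of 15 introns called after 2 days, all higher with GSK591, where 35% of all introns were called. After 4 days 6 of 15 were called, 5 higher and 1 lower, where 45.7% of all were called. After 7 days 5 of 16 were called, 4 higher and 1 lower, where 39.9% of all were called. MRPL20 and MRPL52 were called at all 3 times. Their ΔΨ between GSK591 and MS023 was 0.0856, 0.140 and 0.0598 for MRPL20 (adjusted p = 1.80e-09, 3.75e-23 and 1.84e-29) and 0.165, 0.1696 and 0.105 for MRPL52 (adjusted p = 0.00114, 0.000289 and 0.00619). At 2 days, 3 of 14 introns were called without library a of GSK591, where 37% of all introns were called. The first values were then 0.0988 for MRPL20 (adjusted p = 5.13e-28) and 0.180 for MRPL52 (adjusted p = 0.000238).

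An intron in the 5′ UTR of MRPL55, a mitochondria-specific protein of the large subunit, was also separated between the inhibitors at all 3 times, although with all libraries it was not called against DMSO. It lies at chr1:228296176-228296655 on the minus strand and had only 93 to 234 reads per library. Its Ψ sets retention against splicing to its own 3′ site only, and other transcripts splice from the same 5′ site to another exon. It is therefore not the retained share of all MRPL55 transcripts. Mean Ψ was 0.886, 0.856 and 0.702 after 2, 4 and 7 days of GSK591 and 0.676, 0.613 and 0.462 with MS023, with adjusted p-values of 0.0350, 0.00401 and 0.00506. Leaving out library a of 2-day GSK591, the 2-day difference was 0.253 (adjusted p = 0.0071) and the MRPL55 intron was called against DMSO (ΔΨ = 0.205, adjusted p = 0.0279). The 2-day call between the inhibitors was lost without any single MS023 library (adjusted p = 0.06, 0.113 and 0.0895) and without GSK591 library b (0.0915) or c (0.0947), and the 7-day call without GSK591 library b (0.0577).

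An intron event of MRPS22, a mitochondria-specific protein of the small subunit, was lower with GSK591 than with MS023 after 4 days (0.626 against 0.864, adjusted p = 0.0340) and 7 days (0.444 against 0.759, adjusted p = 0.00198). It runs from chr3:139069165 to 139069872 and shares its 5′ splice site with the almost never retained MRPS22 intron above, which ends at 139069818. Of the annotated transcripts, 1 splices to the 3′ site of this event and 12 to the other. Its Ψ sets retention against splicing to its own 3′ site only, so it is not the retained share of all MRPS22 transcripts. The 4-day call was lost without MS023 library a (0.0954) or c (0.0943) or GSK591 library c (0.147). MRPS7, a small-subunit protein with a bacterial homologue, has an intron in its 3′ UTR whose mean Ψ was 0.994 with GSK591 and 0.980 with MS023 after 4 days (adjusted p = 0.0274) and 0.995 and 0.982 after 7 days (adjusted p = 0.0329). The canonical transcript of MRPS7 keeps this stretch. The 7-day MRPS7 call was lost without MS023 library a (adjusted p = 0.262) or c (0.0758) or GSK591 library a (0.102) or c (0.159).

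Adding MS023 to GSK591 gave 0 of 15 introns called after 2 days and 0 of 15 after 4 days in the quasi-binomial test, where 3.62% and 9.17% of all introns were called. At an unadjusted p below 0.05 there were 0 and 3 introns, and limma called 0 each time. No intron of the 15 was called between 4 and 2 days of MS023 either, with 0 at an unadjusted p below 0.05 and 0 with limma, where 0.233% of all introns were called. Between 7 and 4 days of DMSO, 2 of 16 introns were called lower, where 8.89% of all were. These were MRPL20 (ΔΨ = −0.0101, adjusted p = 0.00205) and the 5′ UTR intron of MRPL55 (ΔΨ = −0.189, adjusted p = 0.0396), so the control itself was not constant for both. Leaving out any one of the 6 DMSO libraries left 1 call.

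Exon and splice-site events of these genes far outnumbered their introns, both among those tested and among those called. In the skipped exons, mutually exclusive exons and alternative splice sites together, 47 of 454 events were called after 2 days of GSK591 (6.33% of all such events were called), 65 of 465 after 4 days (10.3% of all) and 37 of 433 after 7 days (8.19% of all). With MS023 the counts were 14 of 449 after 2 days (3.08% of all), 22 of 459 after 4 days (3.63% of all) and 23 of 443 after 7 days (4.49% of all). With both inhibitors they were 78 of 514 after 2 days (12.6% of all) and 82 of 490 after 4 days (13.8% of all). As shares of the members tested these were 10.4%, 14% and 8.55% for GSK591, 3.12%, 4.79% and 5.19% for MS023, and 15.2% and 16.7% for both inhibitors, the MS023 shares lying close to the background.

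These counts depended on the libraries and on the test. Leaving out any one library left 28 to 35, 33 to 46 and 11 to 19 calls for GSK591 at 2, 4 and 7 days, 0 to 11, 1 to 11 and 3 to 15 for MS023, and 48 to 66 and 45 to 64 for both inhibitors at 2 and 4 days. The lowest counts for MS023 came without its own library c at 2 days, a at 4 days and a at 7 days. Without library a of 2-day GSK591, 35 of 432 events were called in place of 47, where 4.32% of all such events were called. With limma on the log2 odds only 1, 7 and 0 events were called for GSK591, 1, 1 and 0 for MS023, and 13 and 16 for both inhibitors. Apart from the fits without library a of 2-day GSK591, calls over all genes were not counted under these settings. Whether the loss of calls is particular to these genes cannot be told from these counts.

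With GSK591 and with both inhibitors, most of the called skipped-exon events had lower inclusion. After GSK591, 36 of 328 skipped-exon events were called at 2 days, 35 of them lower, in 24 genes and 30 distinct exons, where 5.82% of all skipped-exon events tested were called lower. When library a of that group was left out, 21 of 306 were called, 19 of them lower, where 4.48% of all were called, 2723 of 3315 lower. At 4 days 39 of 328 were called, 35 of them lower (8.07% of all were called lower), in 25 genes and 34 exons. At 7 days 31 of 316 were called, 19 lower and 12 higher (4.96% of all were called lower). With both inhibitors 50 of 357 events were called lower at 2 days (11.5% of all) and 47 of 347 at 4 days (10.6% of all), in all 56 and 55 called events. With MS023, 10 of 319 were called lower at 2 days (2.63% of all), 13 of 329 at 4 days (2.77% of all) and 8 of 324 at 7 days (2.47% of all).

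Across all 8 comparisons with DMSO, 165 events in 51 genes were called at least once, and 119 of them were skipped exons, 23 mutually exclusive exons, 15 alternative 5′ splice sites, 5 introns and 3 alternative 3′ splice sites. Of the 165, 103 were called only lower, 48 only higher and 14 in both directions. A single comparison gave 76 of the events, and 20 were called in 5 or more. These counts over the 8 comparisons were not computed for all genes, so they have no background beside them. The exons tested in the table of 4-day GSK591 had a median length of 107 bases, and 33.3% of the 210 distinct exons had a length divisible by 3, against 120 bases and 40.7% of 58168 exons over all genes.

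**Figure D2:**
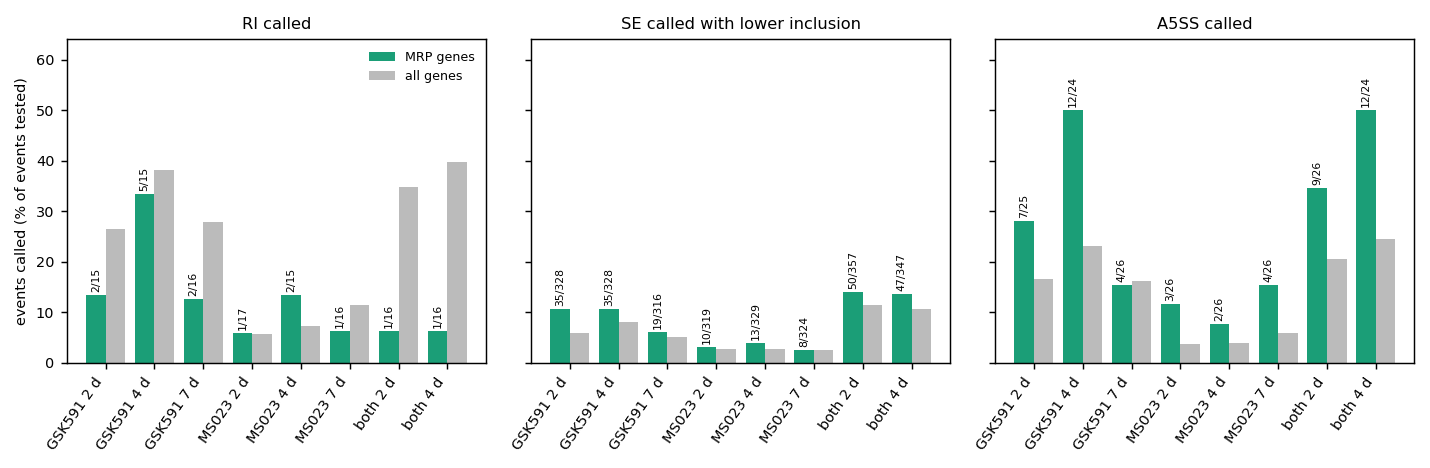
Percent of tested events called in each of the 8 comparisons with DMSO, for retained introns, for skipped exons called lower and for alternative 5′ splice sites; paired bars give the mitochondrial ribosomal protein genes and all genes. After 4 days of GSK591, 33.3% of the introns and 50% of the alternative 5′ splice sites of these genes were called, against 38.2% and 23.1% over all genes.

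Exon 3 of MRPL33, a large-subunit protein with a bacterial homologue, showed a large loss of inclusion on many reads. The exon, at chr2:27997291-27997397 on the plus strand, is coding and 107 bases long, which is not a multiple of 3, both the included and the skipped form are annotated as protein coding, and 1336 to 3208 reads per library fell on the event. Ψ was 0.819, 0.856 and 0.813 in 4-day DMSO and 0.692, 0.668 and 0.768 in 7-day DMSO. With GSK591 it was 0.748, 0.719 and 0.741 after 2 days, 0.560, 0.611 and 0.621 after 4 days and 0.528, 0.541 and 0.492 after 7 days. All GSK591 libraries were below all DMSO libraries of their comparison.

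The ΔΨ of the MRPL33 exon with GSK591 was −0.093 after 2 days (log2 odds −0.78 ± 0.10, adjusted p = 1.79e-07), −0.232 after 4 days (−1.70 ± 0.10, adjusted p = 8.31e-19) and −0.189 after 7 days (adjusted p = 2.70e-76). Without library a of 2-day GSK591 the first value was −0.0990 (adjusted p = 0.000328). Inclusion of the MRPL33 exon differed further between 2 and 4 days of GSK591, by −0.139 (adjusted p = 7.93e-22), and by −0.133 without library a (adjusted p = 6.99e-14). With both inhibitors Ψ was 0.684, 0.697 and 0.666 after 2 days and 0.576, 0.607 and 0.585 after 4 days (ΔΨ = −0.147 and −0.24, adjusted p = 5.3e-13 and 2.13e-18). Against GSK591 alone, both inhibitors gave a lower inclusion after 2 days (−0.0539, adjusted p = 0.00379), which was lost without library a (−0.0478, adjusted p = 0.0730), and no called difference after 4 days (−0.00801, adjusted p = 0.776).

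MS023 alone gave MRPL33 exon values of 0.791, 0.747 and 0.765 after 2 days (ΔΨ = −0.0616, adjusted p = 2.07e-06), 0.817, 0.799 and 0.802 after 4 days (ΔΨ = −0.0236, adjusted p = 0.232) and 0.769, 0.764 and 0.739 after 7 days (ΔΨ = 0.0481, adjusted p = 5.28e-05). The 7-day MS023 values overlapped with those of 7-day DMSO. That call was lost without DMSO library a or b (adjusted p = 0.356 and 0.395) or any MS023 library (0.319, 0.316 and 0.147), and the 2-day call without MS023 library b (0.0758) or c (0.11). Between the controls, inclusion fell by 0.12 from 4 to 7 days (adjusted p = 1.60e-17).

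Exon 3 of MRPS18C, a small-subunit protein and paralogue of MRPS18A, was included more often with MS023 at all 3 times and less often with GSK591 at 2 and 4 days. The exon, at chr4:84379499-84379582 on the plus strand, is coding and 84 bases long, a multiple of 3, and had 736 to 1772 reads per library. With MS023, Ψ was 0.9002, 0.902 and 0.871 after 2 days, 0.944, 0.918 and 0.929 after 4 days and 0.922, 0.930 and 0.932 after 7 days, against 0.819, 0.870 and 0.802 in 4-day DMSO and 0.698, 0.695 and 0.745 in 7-day DMSO. All MS023 libraries were above the DMSO libraries of their comparison. ΔΨ was 0.0609 (adjusted p = 0.000214), 0.1002 (adjusted p = 7.14e-10) and 0.215 (adjusted p = 1.42e-104). The 2-day call was lost without any single MS023 library (adjusted p = 0.156, 0.133 and 0.0731).

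GSK591 gave MRPS18C exon values of 0.765, 0.716 and 0.755 after 2 days, 0.719, 0.652 and 0.705 after 4 days and 0.802, 0.825 and 0.782 after 7 days. The values were below DMSO at 2 and 4 days (ΔΨ = −0.0847 and −0.138, adjusted p = 0.000409 and 3.83e-08) and above DMSO at 7 days (ΔΨ = 0.09, adjusted p = 2.83e-12). Without library a of 2-day GSK591 the 2-day value was −0.0945 (adjusted p = 0.00913). DMSO itself was lower at 7 than at 4 days by 0.117 (adjusted p = 7.13e-12). In the direct tests GSK591 was below MS023 at all 3 times, by 0.146, 0.238 and 0.125 (adjusted p = 1.09e-14, 5.9e-29 and 3.54e-33), and without library a the 2-day difference was −0.155 (adjusted p = 7.43e-09).

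With both inhibitors the MRPS18C exon lay between the single inhibitors, at 0.793, 0.775 and 0.794 after 2 days (ΔΨ against DMSO = −0.0426, adjusted p = 0.0483, a call held in 1 of 6 fits without a library and with adjusted p up to 0.373) and 0.857, 0.865 and 0.882 after 4 days (ΔΨ = 0.0379, adjusted p = 0.0915). After 4 days this was 0.176 above GSK591 alone (adjusted p = 1.04e-19), and after 2 days the difference did not pass the test (adjusted p = 0.192).

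Exon 2 of MRPL55, which lies in the 5′ UTR at chr1:228296656-228296722 on the minus strand and is 67 bases long, was skipped more often with GSK591. On 169 to 488 reads per library, Ψ was 0.497, 0.562 and 0.516 in 4-day DMSO, 0.286, 0.298 and 0.337 after 2 days of GSK591 and 0.211, 0.215 and 0.180 after 4 days. After 7 days it was 0.290, 0.312 and 0.333 with GSK591 and 0.537, 0.602 and 0.595 with DMSO. The groups were well separated at each time, with ΔΨ of −0.218 (adjusted p = 6.64e-08), −0.323 (log2 odds −2.14 ± 0.18, adjusted p = 3.10e-13) and −0.266 (adjusted p = 7.28e-18). Without library a the 2-day value was −0.207 (adjusted p = 0.000718). In the direct test of 4 against 2 days of GSK591 the MRPL55 exon differed by −0.105 (adjusted p = 0.0345), a call lost without any one library (adjusted p = 0.0538 to 0.31, and ΔΨ = −0.116 without library a).

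MS023 gave mean Ψ of 0.561, 0.589 and 0.680 for the MRPL55 exon, with a call only at 7 days (ΔΨ = 0.102, adjusted p = 0.00437). That call was lost without DMSO library a (adjusted p = 0.186) or any MS023 library (0.0501, 0.128 and 0.111). Both inhibitors gave 0.392, 0.356 and 0.247 after 2 days (ΔΨ = −0.194, adjusted p = 3.33e-06) and 0.398, 0.391 and 0.337 after 4 days (ΔΨ = −0.1496, adjusted p = 0.000354). After 4 days, inclusion with both inhibitors was 0.174 higher than with GSK591 alone (adjusted p = 4.31e-06).

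Inclusion of other exons also fell with GSK591 and with both inhibitors. Exon 3 of MRPS10, a small-subunit protein with a bacterial homologue, is 73 bases long (chr6:42181858-42181930, minus strand) and had Ψ values of 0.922, 0.886 and 0.908 in 4-day DMSO and 0.825, 0.777 and 0.747 after 4 days of GSK591 (ΔΨ = −0.122, adjusted p = 4.28e-05). After 2 days ΔΨ was −0.0999 (adjusted p = 0.00864), and −0.136 (adjusted p = 0.00484) without library a of that group. This 2-day call was lost without any single DMSO library (adjusted p = 0.115, 0.0565 and 0.0888) or GSK591 library b (0.102) or c (0.139). With both inhibitors ΔΨ was −0.0990 and −0.127 (adjusted p = 0.000582 and 2.04e-05), while MS023 gave no call for this exon (adjusted p = 0.392, 0.367 and 0.631).

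Exon 3 of MRPL22, a large-subunit protein with a bacterial homologue, is 118 bases long (chr5:154330381-154330498, plus strand) and had its largest ΔΨ after 4 days of both inhibitors. Ψ was 0.888, 0.903 and 0.922 in 4-day DMSO and 0.719, 0.778 and 0.761 after 4 days of both inhibitors (ΔΨ = −0.151, adjusted p = 6.24e-10). GSK591 alone gave −0.0677 after 2 days and −0.0587 after 4 days (adjusted p = 0.000595 and 0.00602). The 2-day call was lost without library a of that group (ΔΨ = −0.0513, adjusted p = 0.0611), and the 4-day call held in 1 of 6 fits without a library (adjusted p up to 0.152). MS023 also gave lower inclusion of the MRPL22 exon after 4 days (ΔΨ = −0.0486, adjusted p = 0.0168) and 7 days (ΔΨ = −0.0376, adjusted p = 0.00861), each held in 1 of 6 such fits (adjusted p up to 0.184 and 0.253). In the direct test at 4 days, both inhibitors were 0.0926 below GSK591 alone (adjusted p = 1.55e-05).

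Exon 5 of MRPL9, a large-subunit protein with a bacterial homologue, is 102 bases long (chr1:151733927-151734028, minus strand) and had its largest ΔΨ after 2 days of both inhibitors, where Ψ was 0.677, 0.618 and 0.588 against 0.815, 0.800 and 0.747 in 4-day DMSO (ΔΨ = −0.1595, adjusted p = 8.49e-08). After 4 days ΔΨ was −0.0786 (adjusted p = 0.00543). GSK591 alone gave −0.0617 after 2 days (adjusted p = 0.0359, quasi-binomial test), a call that held in 1 of 6 fits without a library. Without library a of that group the MRPL9 value was −0.0698 and was not called (adjusted p = 0.0945). The MRPL9 exon differed between both inhibitors and GSK591 alone by −0.0978 after 2 days (adjusted p = 0.00125), and by −0.0897 without library a (adjusted p = 0.0302). An exon of MRPS28, a small-subunit protein, fell from 0.951, 0.966 and 0.962 in 4-day DMSO to 0.902, 0.888 and 0.885 after 4 days of GSK591 (adjusted p = 3.42e-05), and was not called with MS023. After 2 days of GSK591 its ΔΨ was −0.0807 (adjusted p = 1.17e-06, quasi-binomial test), and −0.0755 without library a (adjusted p = 0.00111).

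None of the 7 skipped exons of MRPL33, MRPS18C, MRPL55, MRPS10, MRPL22, MRPL9 and MRPS28 described so far was called against DMSO by limma. Its adjusted p-values for the MRPL33 exon ran from 0.114 to 0.588 with GSK591 or both inhibitors, and those for the MRPS18C exon were 0.389 with 4 days of GSK591 and 0.191 with 7 days of MS023. In the direct comparison of GSK591 and MS023 at 4 days, limma called the exons of MRPS18C (adjusted p = 0.0439) and MRPL55 (adjusted p = 0.0485).

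A further set of exons was almost always included in DMSO and was skipped in a small share of transcripts, after GSK591 and after both inhibitors. The 3 exons given here were chosen after their values were seen, among the exons called against DMSO at all 3 times of GSK591 and both times of the combination. The 69-base exon of MRPL17, a large-subunit protein with a bacterial homologue (chr11:6703978-6704046, minus strand), had Ψ values of 0.992, 0.992 and 0.988 in 4-day DMSO, 0.966, 0.958 and 0.965 after 4 days of GSK591, and 0.923, 0.934 and 0.904 after 2 days and 0.936, 0.935 and 0.933 after 4 days of both inhibitors. ΔΨ was −0.0279 (adjusted p = 9.77e-07), −0.0705 (adjusted p = 1.37e-13) and −0.0560 (adjusted p = 1.66e-11), and no treated library overlapped with DMSO.

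The 131-base exon of MRPL24, a large-subunit protein with a bacterial homologue (chr1:156707438-156707568, minus strand), fell from 0.998, 0.996 and 0.997 in 4-day DMSO to 0.970, 0.964 and 0.979 after 4 days of GSK591 (ΔΨ = −0.0259, adjusted p = 1.24e-07). The 111-base exon of MRPL51, a mitochondria-specific protein of the large subunit (chr12:6602028-6602138, minus strand), had 1, 1 and 0.9993 in 4-day DMSO and 0.987, 0.994 and 0.994 after 4 days of GSK591 (ΔΨ = −0.00811, adjusted p = 1.09e-06). Limma called the MRPL24 and MRPL51 exons at 4 days of GSK591 (adjusted p = 0.0456 and 0.0294) and the MRPL17 exon with both inhibitors (0.0244 and 0.0256), but not the MRPL17 exon with GSK591 alone at 4 days (0.125). With MS023 the MRPL17, MRPL24 and MRPL51 exons were not called at any time. Their calls with GSK591 at 4 days and with both inhibitors held in all 6 fits that left out a library, whereas those at 7 days held in 1, 1 and 2 of 6. After 2 days of GSK591 their ΔΨ was −0.0366, −0.0217 and −0.00286 (adjusted p = 1.29e-07, 1.85e-05 and 0.00731, quasi-binomial test). Without library a these were −0.0367, −0.0255 and −0.00319 (adjusted p = 0.00036, 0.00033 and 0.0299), and the 2-day calls held in 6, 6 and 4 of 6 fits.

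**Figure D3:**
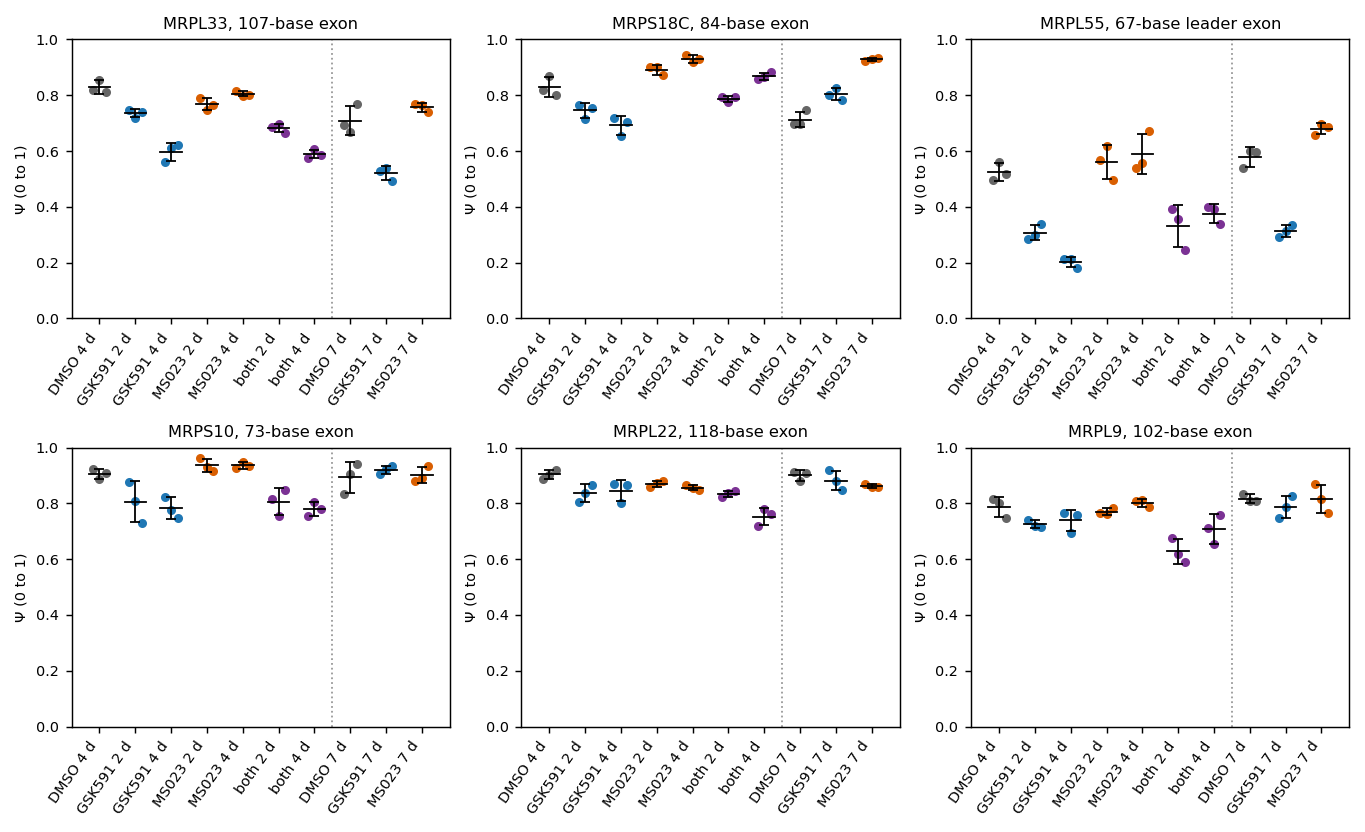
Ψ (vertical axis) of skipped exons of MRPL33, MRPS18C, MRPL55, MRPS10, MRPL22 and MRPL9 in the 10 groups; points are libraries, lines are means and bars are SD (n = 3). The MRPL33 exon falls to a mean of 0.597 after 4 days of GSK591, and the MRPS18C exon is at 0.930 after 4 days of MS023 and at 0.692 after 4 days of GSK591.

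The alternative 5′ splice sites called with GSK591 mostly gained the longer exon, in these genes and over all genes. After 2 days 7 of 25 events were called, 6 of them with more of the longer form, where 16.6% of all such events were called, 414 of 670 with more of the longer form. With library a of that group left out, 9 of 25 were called, 7 with more of the longer form, where 15.1% of all were called. After 4 days 12 of 24 were called, 10 with more of the longer form, in 8 genes, where 23.1% of all were called, 597 of 950 with more of the longer form. After 7 days 4 of 26 were called, 3 with more of the longer form, where 16.3% of all were called, 350 of 625 with more of the longer form. With both inhibitors 9 of 26 were called after 2 days, all with more of the longer form (20.6% of all were called, 481 of 843 with more of it), and 12 of 24 after 4 days, 10 with more of the longer form (24.4% of all, 598 of 1007 with more of it). With MS023, 3 of 26 were called after 2 days (3.62% of all), 2 of 26 after 4 days (3.97% of all) and 4 of 26 after 7 days (5.94% of all), and 1 of these 9 calls was towards the longer form. The events of these genes had more reads behind them than the average event, with a median of 554 reads per library against 194.2 over all alternative 5′ splice sites and of 492.9 against 220.7 over all skipped exons. The part of read depth in these shares was not tested.

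MRPL55 had a competing 5′ splice site downstream of the exon described above. Use of the downstream site adds 518 bases to the exon, within the 5′ UTR, at chr1:228296138-228296655. Ψ, here the share of the longer form, was 0.213, 0.215 and 0.186 in 4-day DMSO, 0.269, 0.285 and 0.289 after 2 days of GSK591 and 0.404, 0.421 and 0.400 after 4 days. All GSK591 libraries were above DMSO at both times (ΔΨ = 0.0763 and 0.204, adjusted p = 0.0177 and 4.80e-06), and 4 days were above 2 days (by 0.1275, adjusted p = 0.0267). The last call held in 2 of 6 fits without a library, and without library a the MRPL55 form differed by 0.121 (adjusted p = 0.139). The 2-day call against DMSO was lost without DMSO library c (adjusted p = 0.0891) or GSK591 library b (0.0542) or c (0.0534), and kept without library a (ΔΨ = 0.0824, adjusted p = 0.0375). After 7 days the difference was not called (adjusted p = 0.300). This Ψ compares the exon forms with each other and leaves out transcripts that skip the exon. Inclusion of the longer exon of 585 bases, set against its skipping, was called lower with GSK591 at 2, 4 and 7 days. At 2 days its ΔΨ was −0.0921 (adjusted p = 0.000437, quasi-binomial test). Without library a it was −0.081 and the call was lost (adjusted p = 0.0671).

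MS023 lowered the longer MRPL55 form, to 0.147, 0.139 and 0.141 after 2 days, 0.156, 0.126 and 0.149 after 4 days and 0.160, 0.151 and 0.114 after 7 days, where 7-day DMSO gave 0.207, 0.203 and 0.206. The groups did not overlap (ΔΨ = −0.0628, −0.0612 and −0.0634, adjusted p = 0.0214, 0.0280 and 0.0115). The 2-day call was lost without DMSO library a (adjusted p = 0.0691) or b (0.122), or any MS023 library (0.106, 0.125 and 0.113). The 4-day call was lost without DMSO library a (0.0706) or b (0.172), or any MS023 library (0.0587, 0.216 and 0.127). The 7-day call was lost without any single library (0.0517 to 0.14).

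In the direct tests, the MRPL55 longer form was higher with GSK591 than with MS023 at 2, 4 and 7 days (adjusted p = 2.04e-06, 2.81e-18 and 3.44e-05, and 3.82e-06 at 2 days without library a). With both inhibitors the form reached 0.387, 0.369 and 0.435 after 4 days (ΔΨ = 0.192, adjusted p = 1.61e-06), where GSK591 alone gave a mean of 0.409, and after 2 days it was not called (adjusted p = 0.108). The retained 5′ UTR intron of MRPL55 described above lies within the added stretch, so both events and the skipped exon draw on overlapping reads.

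MRPL21, a large-subunit protein with a bacterial homologue, had a pair of events towards longer exons. In its leader exon, 13 bases of 5′ UTR at chr11:68668003-68668015 (minus strand) are added when the downstream site is used. Ψ was 0.0691, 0.0732 and 0.0805 in 4-day DMSO, 0.155, 0.163 and 0.149 after 2 days of GSK591 and 0.185, 0.200 and 0.179 after 4 days (ΔΨ at 4 days = 0.114, adjusted p = 1.93e-07, and at 2 days adjusted p = 2.89e-06). Without library a the 2-day ΔΨ of the MRPL21 leader form was 0.0815 (adjusted p = 1.34e-05). With both inhibitors the values were 0.169, 0.199 and 0.205 after 2 days and 0.193, 0.227 and 0.196 after 4 days (adjusted p = 1.06e-07 and 1.08e-08), again above every DMSO library. MS023 gave means of 0.0937, 0.105 and 0.103 with no call.

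At 7 days DMSO itself had more of the longer MRPL21 leader form, at 0.179, 0.147 and 0.0978 (ΔΨ to 4-day DMSO = 0.067, adjusted p = 0.000559), and overlapped with GSK591 at 0.174, 0.200 and 0.184. The 7-day call with GSK591 (ΔΨ = 0.0445, adjusted p = 0.0259) was lost without DMSO library b (0.188) or c (0.418) or any GSK591 library (0.0621, 0.313 and 0.119).

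Further downstream in MRPL21, a 5′ splice site adds 81 partly coding bases at chr11:68660790-68660870, and the longer form is annotated as a target of nonsense-mediated decay. It had Ψ values of 0.0562, 0.0597 and 0.0656 in 4-day DMSO, 0.106, 0.139 and 0.111 after 2 days of GSK591 and 0.114, 0.146 and 0.122 after 4 days (adjusted p = 8.41e-05 and 4.02e-05), and the 2-day ΔΨ without library a was 0.0648 (adjusted p = 3.31e-05). With both inhibitors the means were 0.125 and 0.142 (adjusted p = 3.74e-05 and 2.52e-06). MS023 gave a lower share after 4 days, at 0.0331, 0.0318 and 0.0395 (ΔΨ = −0.0257, adjusted p = 0.0175), and after 7 days (ΔΨ = −0.0198, adjusted p = 0.019). The 4-day call was lost without DMSO library b (0.0696) or c (0.0812) or any MS023 library (0.0956, 0.107 and 0.0562), and the 7-day call without DMSO library a (0.117) or b (0.0958) or MS023 library a (0.147) or c (0.136).

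MRPS11, a small-subunit protein with a bacterial homologue, used an upstream 3′ splice site that adds 80 bases (chr15:89018261-89018340, plus strand) more often. Ψ was 0.00538, 0.00957 and 0.0122 in 4-day DMSO, 0.0333, 0.0430 and 0.0385 after 4 days of GSK591 and 0.0554, 0.0365 and 0.0582 after 4 days of both inhibitors (ΔΨ = 0.0292 and 0.041, adjusted p = 1.27e-06 and 1.01e-07), with no overlap. It was also called with GSK591 after 2 days (adjusted p = 0.00972), with both inhibitors after 2 days (adjusted p = 0.00699) and with MS023 after 4 days (adjusted p = 0.00789). The GSK591 2-day call was lost without its library a (ΔΨ = 0.0131, adjusted p = 0.0985) or DMSO library a (0.103) or b (0.0579). The 2-day call with both inhibitors was lost without DMSO library a (0.0753) or library b of the treated group (0.143). The MS023 call was lost without DMSO library a (0.0513) or b (0.116) or MS023 library a (0.25) or c (0.232). A gene on the opposite strand overlaps the added stretch.

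**Figure D4:**
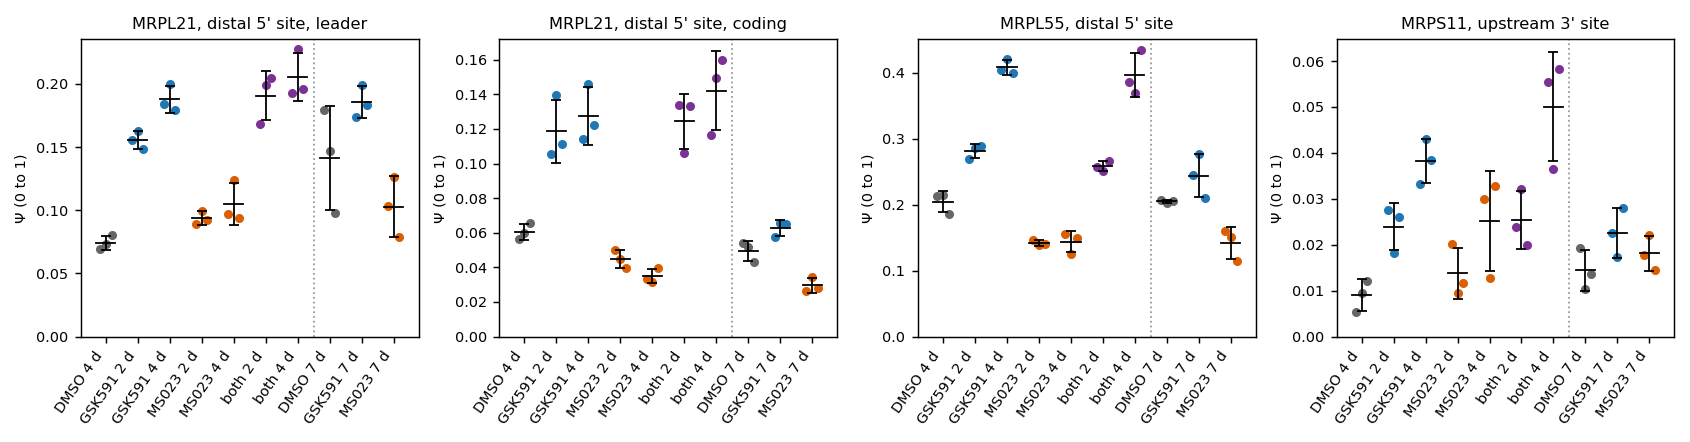
Ψ, the share of the longer form, at alternative splice sites of MRPL21 (leader and coding exon), MRPL55 and MRPS11 in the 10 groups; points are libraries, lines are means and bars are SD (n = 3). The longer MRPL55 form reaches a mean of 0.409 after 4 days of GSK591 and 0.142 after 2 days of MS023, against 0.205 in 4-day DMSO.

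In pairs of mutually exclusive exons, 3 of 77 events were called after 2 days of GSK591 (1.81% of all pairs were called), 11 of 88 after 4 days (7.25% of all) and 1 of 67 after 7 days (5.49% of all). At 2 days, 5 of 77 pairs were called without library a of GSK591, where 1.89% of all were. With both inhibitors 11 of 108 were called after 2 days (8.13% of all) and 13 of 97 after 4 days (9.58% of all). With MS023 the quasi-binomial test called 0 of 76 after 2 days (0.956% of all), where 4 had an unadjusted p below 0.05 and limma called 1. It called 2 of 78 after 4 days (1.4% of all) and 2 of 67 after 7 days (2.72% of all). In the pair of MRPS18C that includes exon 3, the other exon overlaps a gene on the opposite strand. That exon is also the downstream neighbour of exon 3 in the skipped-exon event above. The Ψ of the pair is therefore not the share of all MRPS18C transcripts that carry exon 3. This Ψ, as the share of exon 3 within the pair, was 0.506, 0.536 and 0.475 in 4-day DMSO and 0.485, 0.488 and 0.523 in 7-day DMSO. It was 0.696, 0.762 and 0.762 after 7 days of MS023 (ΔΨ = 0.241, adjusted p = 1.37e-08), above every DMSO library. In MRPL22, the share of the upstream exon paired with exon 3 rose from 0.152, 0.123 and 0.0999 in 4-day DMSO to 0.335, 0.263 and 0.300 after 4 days of both inhibitors (ΔΨ = 0.1745, adjusted p = 1.27e-05).

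Between GSK591 and MS023 directly, 52 of 376 exon and splice-site events of these genes were called after 2 days (10.6% of all such events), 72 of 362 after 4 days (15.8% of all) and 50 of 363 after 7 days (13.4% of all). Of these 22, 28 and 23 were higher with GSK591 and 30, 44 and 27 lower. Over these times, 11 of 25, 12 of 24 and 9 of 25 alternative 5′ splice sites were called, where 22.9%, 29.2% and 26% of all were. The 2-day counts without library a of GSK591 were 38 of 372 exon and splice-site events (8.59% of all) and 10 of 25 alternative 5′ splice sites (21.5% of all).

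**Figure D5:**
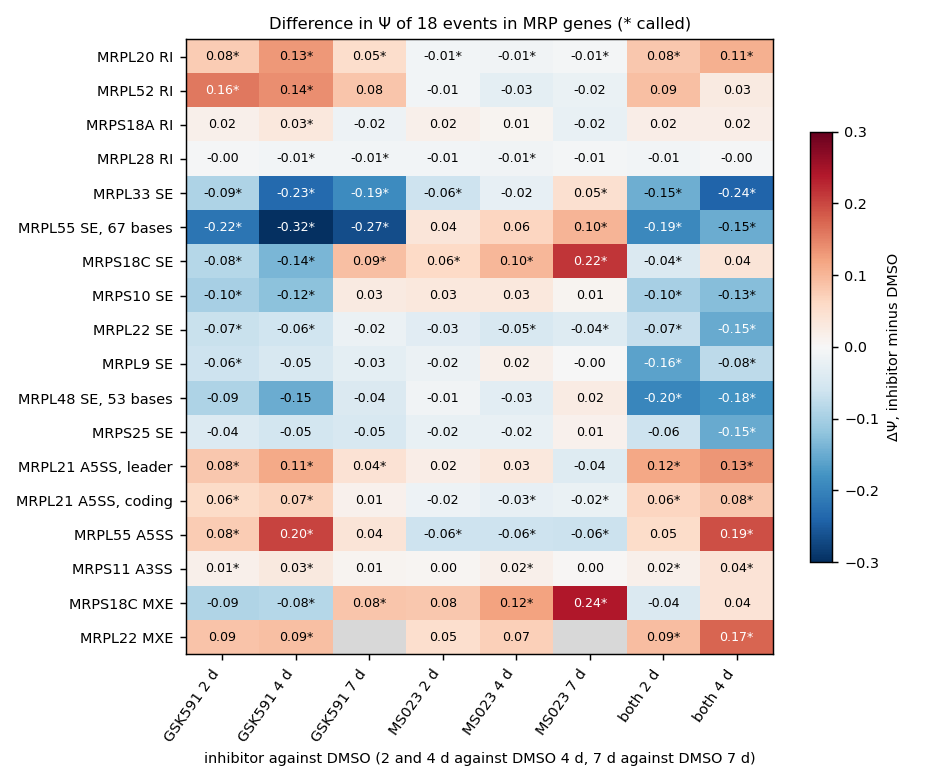
ΔΨ against DMSO (colour and number) of 18 events in the 8 comparisons; asterisks mark called events. The MRPL20 intron is above 0 in the 5 comparisons with GSK591 and below 0 in the 3 with MS023 alone, and the MRPL33 exon is lowest after 4 days of GSK591 (−0.232) and of both inhibitors (−0.24).

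Calls were spread over genes with MRPL and with MRPS symbols, named large- and small-subunit genes here by symbol alone. After 4 days of GSK591, 25 of 210 skipped-exon events of large-subunit genes were called lower and 3 higher (13.3% called), and 10 of 118 of small-subunit genes lower and 1 higher (9.32% called), against 10.6% of all skipped-exon events. Genes with a bacterial homologue had 22 of 196 called lower and 2 higher, and mitochondria-specific genes 13 of 132 lower and 2 higher (12.2% and 11.4% called). The median ΔΨ was −0.0012 for the large and −0.0013 for the small subunit, and −0.0019 over all events. With both inhibitors for 4 days the large subunit had 36 of 220 called lower and 5 higher (18.6%) and the small subunit 11 of 127 lower and 3 higher (11%), against 14.6% of all. With 4 days of MS023 the shares called were 5.45% and 4.72%, against 4.28% of all.

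Other genes of mitochondrial translation lay in the same range. After 4 days of GSK591, mitochondrial translation factors had 11 of 146 skipped-exon events called lower and 6 higher (11.6%). Assembly factors of the mitochondrial ribosome had 9 of 151 lower and 5 higher (9.27%), and ribosomal proteins of the organelle under other symbols had 6 of 75 lower and 2 higher (10.7%). Of the introns of these lists, the quasi-binomial test called 0 of 3 in translation factors (1 at an unadjusted p below 0.05, and 0 with limma). It called 1 of 6 in assembly factors and 2 of 3 in the ribosomal proteins under other symbols. In genes with an MRPL symbol 4 of 11 were called, and in genes with an MRPS symbol 1 of 4, that of MRPS18A. Over all introns tested, 38.2% were called.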

How the data were processed

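Poly(A)-RNA libraries of A549 cells were sequenced by the authors, trimmed with Trim Galore (0.6.5 in the submitters' processing notes), aligned to hg19 with STAR (2.4.2a) and summarised with rMATS. The deposited tables give, per event, whole-number inclusion and skipping read counts of 3 unnamed libraries per group, joined in a cell, with effective lengths. Deposited p-values, false discovery rates and inclusion differences were not used. No column names the 7-day control, which was inferred from the 7-day samples that cite those tables.

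Ψ was recomputed from the counts, and the counts, without length correction, were tested with a quasi-binomial logistic model (R 4.3.3). Pearson dispersions were moderated with limma 3.58.1 using events of nonzero dispersion, and held at 1 or above. Where the moderation gave full weight to the common value, every event of the type took that value, whatever its own spread. F-test p-values were adjusted by Benjamini-Hochberg within event type. Every library needed 10 reads, and events with reads of a single form were not tested. Simulated data tested the scripts. Intervals are 95%. Introns and exons were annotated with GENCODE 44 lifted to GRCh37, the build of the files, with pandas 2.3.3 and pysam 0.24.0. Each result was also computed with limma on the log2 odds and without each library in turn. Counts of calls were also made with read minimums of 20 and 1 and with adjustment over all event types. Differences of named events were also computed without length correction, which does not enter the test.

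Named were, per comparison and among called events with a mean of 50 reads, the 5 introns, the 5 skipped exons and the 2 events of each other type with the largest ΔΨ, introns called between the inhibitors, and introns at either end of the Ψ range. Of events sharing an end, the one with most reads was kept. Not every named event is described in the text, and the exons of MRPL48 and MRPS25 are not. An MRPL48 exon (chr11:73528868-73528992) had the largest ΔΨ of the named skipped exons at 2 days of GSK591 (−0.176, adjusted p = 0.0439, quasi-binomial test). That call held in 0 of 6 fits without a library. The exons of MRPL17, MRPL24 and MRPL51, and values of named events in further comparisons, were chosen after values were seen. The members, lists and tests were chosen with earlier results of these data known. SKaTER-seq and actinomycin D libraries were not analysed here.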

Additional observations from a re-analysis of the deposited data

Results flagged for a closer look

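Time points with GSK591 or MS023 differed in direction for 4 events in which every library of each group lay beyond every control library. The difference itself was not tested, and the 7-day libraries have another DMSO control than the 2- and 4-day libraries. Exon 3 of MRPS18C had a ΔΨ with GSK591 of −0.0847 after 2 days, −0.138 after 4 days and 0.09 after 7 days. The mutually exclusive pair of MRPS18C that shares this exon had −0.0897, −0.0845 and 0.0823, the first of which was not called. A pair of MRPS36, whose product is now assigned to the 2-oxoglutarate dehydrogenase complex, had 0.0643 after 2 days, 0.0668 after 4 days and −0.0245 after 7 days, of which the 4-day value was called. The intron of MRPS18A had, with MS023, 0.00929 after 4 days and −0.0217 after 7 days, neither of them called.

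Direct tests of 4 against 2 days of GSK591 called 5 events, 2 of them the MRPL33 exon with different neighbouring exons. Over all genes, 4.84% of introns and 697 exon and splice-site events were called. In these genes 1 of 15 introns and 4 exon and splice-site events were called. With library a of 2-day GSK591 left out, 81295 exon and splice-site events of all genes could be tested, and 365 of these genes. These tests use no DMSO libraries, and time in culture differs along with treatment time, so their parts cannot be told apart. Retention of the MRPL20 intron rose by 0.0532 and the longer 5′ splice-site form of MRPL55 by 0.127. Inclusion of the MRPL55 exon in the 5′ UTR differed by −0.105 and that of the MRPL33 exon by −0.139 and −0.0484. Library a of 2-day GSK591, which stood apart, is part of each of these 5 tests. Without it the MRPL20 intron (0.0400, adjusted p = 0.00054) and the first MRPL33 event (−0.133, adjusted p = 6.99e-14) were called, and the MRPL55 splice site (0.121, adjusted p = 0.139), the MRPL55 exon (−0.116, adjusted p = 0.0538) and the other MRPL33 event (−0.0489, adjusted p = 0.065) were not. In all, 1 of 15 introns and 2 of 365 exon and splice-site events of these genes were then called, where 4.55% and 0.697% of all were.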

How the results depend on the processing

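No paired analysis was possible because the count columns carry no replicate numbers, and the planned count model with a term per library was not run. With limma on the log2 odds, called exon and splice-site events were 1, 7 and 0 for GSK591 at 2, 4 and 7 days, 1, 1 and 0 for MS023, and 13 and 16 for both inhibitors at 2 and 4 days. Called introns were 0 for MS023 at each time, 3 for GSK591 against MS023 at 7 days, and 0 for GSK591 at 4 against 2 days and DMSO at 7 against 4 days. Adjusting over all event types left 3 introns for GSK591 at 4 days and 1 at 7 days, and a minimum of 20 reads gave 2 introns for MS023 at 7 days. The cause was not tested. Calls over all genes were not counted under these settings, so the counts have no background beside them.

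Leaving out 1 library at a time gave introns called from 2 to 4 (GSK591, 2 days), 4 to 5 (4 days), 1 to 2 (7 days), 1 to 2 (MS023, 2 and 4 days), 1 to 1 (7 days) and 1 to 2 (both inhibitors, each day). Ranges were 2 to 3, 4 to 7 and 4 to 5 for GSK591 against MS023 at 2, 4 and 7 days, 0 to 0 and 0 to 1 for both inhibitors against GSK591 at 2 and 4 days, and 1 to 1 for DMSO at 7 against 4 days. For exon and splice-site events they were 28 to 35, 33 to 46 and 11 to 19 (GSK591), 0 to 11, 1 to 11 and 3 to 15 (MS023), and 48 to 66 and 45 to 64 (both inhibitors). Without library a of 2-day GSK591, 4 introns were called in place of 2, where 27.4% of all introns were called. Fits without a library of another group were not counted over all genes.

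Of 103 values of named events, all kept their direction without length correction. The test does not use effective lengths, so this setting could not change a call. With limma 23 kept the call and 80 lost it, and 416 fits with a library left out kept it where 202 lost it. None reversed. Reads per event limit the introns of MRPL55 and MRPS22.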
